A study of Mus musculus with 8 samples.

Results

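Fibrillar collagen is made by a chain of enzymes, chaperones and proteinases, and the transcripts of 36 such genes were described here in cultured mouse cardiac fibroblasts. The genes were chosen by name, with earlier results of these data known, and all 36 were found among the 54532 genes of the deposited tables. They comprise 4 prolyl 4-hydroxylase subunits, 7 genes of lysyl hydroxylation and glycosylation, 5 of prolyl 3-hydroxylation, 4 chaperones and isomerases, 3 genes of export and its control, 7 procollagen proteinases and enhancers, and 6 cross-linking enzymes. Of the 36, 34 passed the expression filter that left 14723 genes for testing. Colgalt2 and Adamts3 did not pass it.

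Procollagen chains are hydroxylated on proline and lysine in the endoplasmic reticulum (ER), which allows a stable helix to form and sugars and cross-links to be attached. Chaperones hold the chains during folding, and large COPII carriers take the folded procollagen out of the ER. Outside the cell, proteinases remove both propeptides and lysyl oxidases join the fibrils covalently. In the heart, cardiac fibroblasts make most of the interstitial collagen, and cross-linking adds to the stiffness of a fibrotic ventricle.

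The study set 4 libraries from fibroblasts given a plasmid with HA-tagged murine Thbs4, the gene of thrombospondin-4 (TSP-4), a matricellular protein, against 4 libraries from fibroblasts given an empty plasmid. Cells of both groups were C57BL/6 cardiac fibroblasts at passage 2, kept without serum for 24 h before poly(A) RNA was taken. The TSP-4 plasmid is named as pAAV.CMV.SV40.THBS4-HA.SV40(polyA) and the empty one as pAAV-CA, so the groups differ by more of the plasmid than Thbs4. Libraries carry the letters A to D in each group, and the labels do not say what a letter marks or whether libraries came from separate animals or cultures. The p-values therefore measure the spread between these libraries, which may be technical.

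Thbs4, read first as the check of the labels, stood at 1783 ± 288 CPM (counts scaled to equal library totals) in TSP-4 plasmid cells, against 0.327 ± 0.254 CPM in empty plasmid cells (SD, n = 4 each). Total counts were 17123735 to 22530947 per library. The defining fibroblast markers summed to 9297 to 14090 CPM in the TSP-4 plasmid libraries and 9147 to 14450 CPM in the empty plasmid libraries. Most of this sum came from the collagens Col1a1, Col1a2 and Col3a1. Pdgfra, Thy1, Tcf21, Dcn and Ddr2 averaged 67.4, 107, 129, 299.6 and 383 CPM over all libraries. Macrophage markers summed to 301.5 to 1707 CPM in TSP-4 plasmid libraries and 334.9 to 1381 CPM in empty plasmid libraries, lowest in letter A and highest in letter C of both groups. Mesothelial markers summed to 448.8 to 774.9 CPM and 422.1 to 788.6 CPM, and were higher in letters A and D than in B and C. Endothelial markers stayed at 52.59 CPM or less in sum, pericyte and smooth muscle markers at 36.02 CPM or less, cardiomyocyte markers at 17.6 CPM or less, and Schwann cell markers at 1.43 CPM or less. T, B and NK cell markers were at 0.156 CPM or less in sum.

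Of the 36 folding and cross-linking genes, 34 passed the expression filter in these fibroblasts, and a few genes carried most of the summed level. Levels between genes are given as the authors' fragment counts scaled to gene length and library total (FPKM), which correct for gene length. Serpinh1, which encodes the collagen chaperone HSP47, was highest at 972 ± 132 FPKM in TSP-4 plasmid cells, against 915 ± 88.5 FPKM in empty plasmid cells (SD, n = 4 each, as for all values with ±). Lox, the lysyl oxidase that starts covalent cross-links, was next at 762 ± 82.7 FPKM in TSP-4 plasmid cells, against 726 ± 41.4 FPKM in empty plasmid cells. P4hb, the protein disulfide isomerase that is also the beta subunit of prolyl 4-hydroxylase, followed at 384 ± 13.2 FPKM in TSP-4 plasmid cells, against 370.0 ± 13.0 FPKM in empty plasmid cells. Of the summed FPKM of the 36 genes, Serpinh1 made up 25.9% in TSP-4 plasmid cells and 25.6% in empty plasmid cells, and Lox 20.3% and 20.4%. The order by level was the same for all 36 genes when TMM-scaled counts per kilobase replaced the FPKM values. Both measures divide the same counts by the same gene lengths and differ only in library scale, so this is no separate check.

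**Figure D1:**
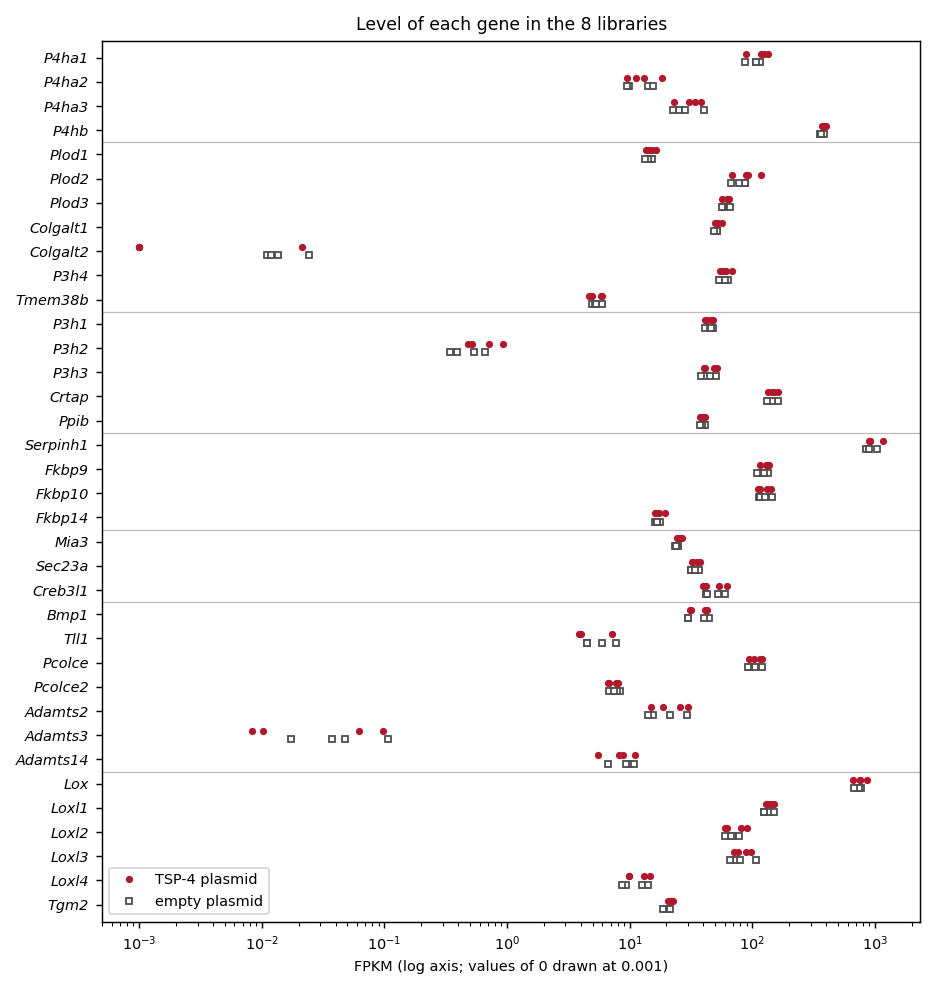
FPKM of each of the 36 genes in the 8 libraries (log axis), with TSP-4 plasmid libraries as filled circles and empty plasmid libraries as open squares, grouped by role; values of 0 are drawn at 0.001. Serpinh1, Lox and P4hb stand highest, Colgalt2 and Adamts3 lowest, and circles and squares overlap for every gene.

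A single paralogue led each family but the prolyl 3-hydroxylases and the ER FKBP isomerases, the same one with both plasmids. Lox held 71.1 ± 1.60% of the summed FPKM of the 5 lysyl oxidases in TSP-4 plasmid cells and 71.1 ± 1.80% in empty plasmid cells. P4ha1 held 72.5 ± 3.03% and 71.8 ± 3.02% of the 3 catalytic prolyl 4-hydroxylase subunits. Bmp1 held 88.3 ± 4.87% and 85.9 ± 5.46% of itself plus Tll1, and Pcolce 93.6 ± 0.688% and 93.1 ± 0.755% of both enhancers. Adamts2 held 72.1 ± 6.21% and 67.6 ± 6.27% of the 3 N-proteinases. Plod2, the enzyme that hydroxylates lysine in the telopeptides, held 54.2 ± 4.60% and 51.8 ± 2.37% of the 3 lysyl hydroxylases. P3h1 and P3h3 shared prolyl 3-hydroxylation almost evenly, with P3h1 at 49.1 ± 4.45% and 50.6 ± 4.34%. Fkbp9 and Fkbp10 did so among the ER FKBP isomerases, with Fkbp9 at 47.6 ± 3.52% and 46.3 ± 4.26%. The ranges of the groups overlapped for each of these shares.

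With the TSP-4 plasmid, 0 of the 34 genes passed the threshold of an adjusted p under 0.05 in edgeR's quasi-likelihood test over 14723 genes, where 0.00679% of all genes were called, Thbs4 alone. At an unadjusted p under 0.05 the count was also 0 of 34, against 1.6% of all genes tested. Without TSP-4 plasmid library D it was 3 of 34, P4ha1, Plod2 and Tll1, against 4.19% of all genes, and without empty plasmid library C it was 1 of 34, Tgm2, against 1.1%. The groups were fully separate for 0 of 34 genes, against 1.51% of all genes. Log2 fold changes ran from -0.26 for Tll1 to 0.45 for P3h2, with a median of 0.05, against -0.00 over all genes. They lay above 0 for 27 of 34 genes (79.4%), against 49.9% of all genes. When 1 library was left out, the median log2 fold change of the members moved. It was 0.0155 without empty plasmid library D, 0.0908 without empty plasmid library B and 0.0841 without TSP-4 plasmid library D. Each such fit leaves a letter without its library in the other group, and so unbalances the letters. With 1 library left out 21 to 28 genes lay above 0, and 20 of the 34 changed sign in at least 1 such fit. The 95% interval lay within 2-fold in either direction for 33 of 34 genes and beyond it for P3h2, and all 34 intervals included 0. In bulk RNA, fewer cells of a kind and less RNA per cell cannot be told apart.

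Libraries with the same letter moved together, and the fit above counts the spread between letters as error. Another edgeR fit took the letter as a replicate block. It lowered the median SE of the 34 log2 fold changes to 0.04, against 0.10 without the block, and left their median at 0.05. With the block 0 of 34 genes were called over all genes, against 0.0136% of all genes, and the smallest adjusted p was 0.376, for Tll1. At an unadjusted p under 0.05, 6 genes were higher with the TSP-4 plasmid (17.6%, against 4.14% of all genes): P4ha1, Plod2, P3h2, Serpinh1, Adamts2 and Tgm2. In the other direction, 2 were lower (5.88%, against 3.98% of all genes): Tll1 and Adamts14. Among genes with a mean of at least 10 CPM, the share in either direction was 7 of 33 (21.2%), against 9.72% of all such genes. Paired letter by letter, 11 genes were higher with the TSP-4 plasmid in 4 of 4 letters (32.4%, against 8.02% of all genes) and 2 were lower in 4 of 4 (5.88%, against 8.04%). These shares are descriptions, since the genes share libraries and were chosen with earlier results of these data known.

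**Figure D2:**
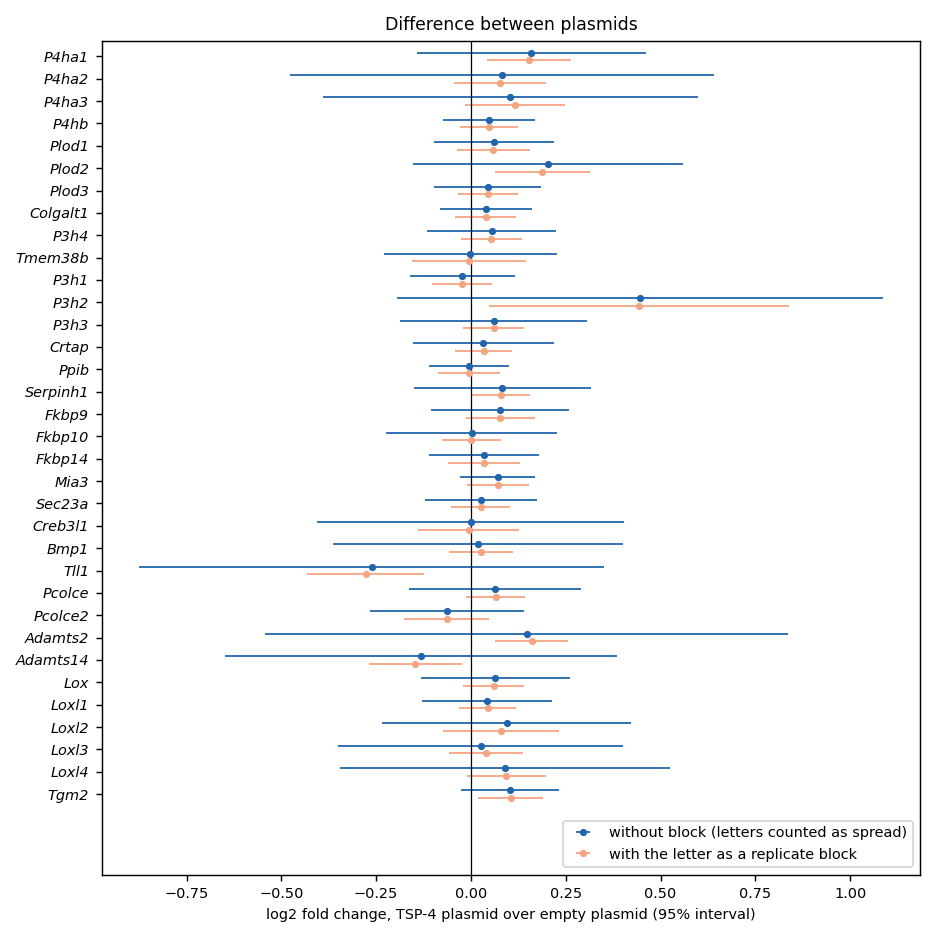
Log2 fold change (TSP-4 plasmid over empty plasmid) of the 34 tested genes with 95% intervals, from edgeR without a block (dark points) and with the letter as a replicate block (light points), in order of role. The points agree closely while the intervals narrow, and 8 genes have a block interval that leaves out 0.

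Paired differences varied among letters. The median of the paired log2 differences over the 34 genes was 0.08 in letter A, -0.00 in letter B, 0.08 in letter C and 0.04 in letter D, where all genes had medians of 0.01, -0.01, -0.00 and 0.00. The median was thus near 0 in letter B and above 0 in letters A, C and D.

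Promoter sequence is shown for P4ha1, Serpinh1 and Adamts2, which were higher in 4 of 4 letters with an unadjusted p under 0.05 in the blocked fit and have an entry in the RefSeq promoter table (GRCm38.p6). Each line gives the 250 bases before the start, 5′ to 3′ on the gene's own strand. Capitals mark ACGTG, the core of the hypoxia response element, or GGGCGG, the GC box bound by SP1, on either strand, so that they also read CACGT and CCGCCC.
P4ha1 chr10:59323046-59323295 plus strand: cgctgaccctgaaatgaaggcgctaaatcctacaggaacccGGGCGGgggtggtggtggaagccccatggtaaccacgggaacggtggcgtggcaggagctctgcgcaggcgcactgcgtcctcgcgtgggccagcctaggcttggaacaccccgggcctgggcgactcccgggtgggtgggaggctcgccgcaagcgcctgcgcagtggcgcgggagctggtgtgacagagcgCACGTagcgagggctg
Serpinh1 chr7:99353240-99353489 minus strand: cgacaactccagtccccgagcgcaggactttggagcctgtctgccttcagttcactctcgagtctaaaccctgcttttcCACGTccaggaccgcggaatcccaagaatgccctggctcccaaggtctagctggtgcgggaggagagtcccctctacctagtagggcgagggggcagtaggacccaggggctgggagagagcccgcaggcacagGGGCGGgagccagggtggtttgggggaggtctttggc
Adamts2 chr11:50601835-50602084 plus strand: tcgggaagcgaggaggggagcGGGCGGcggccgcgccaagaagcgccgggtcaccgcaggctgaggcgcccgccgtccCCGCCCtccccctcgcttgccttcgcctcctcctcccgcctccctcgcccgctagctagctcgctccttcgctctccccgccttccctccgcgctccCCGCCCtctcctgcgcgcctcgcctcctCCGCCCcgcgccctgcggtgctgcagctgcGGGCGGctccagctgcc
P4ha1 and Serpinh1 each hold both motifs once, and Adamts2 holds the GC box 5 times and no ACGTG.

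Promoter windows of 250 bases could be read for 23 of the 36 genes. For a gene with several windows, among these genes and in the background, the one with the lowest start coordinate was used. For 20 of the 23, the first transcribed bases after the window were found in a GENCODE M21 transcript of the gene. The windows of Fkbp14, P4ha2, Pcolce and Tll1 lay inside the annotated gene. ACGTG was found on either strand in 9 of 23 (39.1%), against 17.5% of 17491 windows of protein-coding genes. The 9 were Adamts3, Fkbp9, Mia3, P4ha1, P4ha2, P4hb, Plod3, Ppib and Serpinh1. GGGCGG was found in 17 of 23 (73.9%), against 42.3%. The windows of the 23 genes had a median G and C content of 63.6%, against 55.2%, and its part in these shares was not tested. CCAAT stood in 30.4% of the 23 windows against 36.2%, TGACG, the core of the cAMP response element, in 26.1% against 20%, and GAANNTTC, a pair of heat shock units, in 4.35% against 6.33%. The ER stress response element was found in 0 of 23 windows, against 0.143% of all, and GTCTAGAC, the SMAD box, in 0 of 23, against 0.2%. TATAAA, the TATA box, stood in 8.7% against 12.3%. All motifs were read on both strands, and TGACG and ACGTG, like CCAAT and the ER stress element, can share bases. These are matches of letters, not sites of binding.

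Prolyl 4-hydroxylase makes 4-hydroxyproline, which stabilises the collagen helix at body temperature. P4ha1 (ENSMUSG00000019916, chr10:59323296-59373304, plus strand in GRCm38), its main catalytic subunit, was at 555, 489, 515 and 370.2 CPM in TSP-4 plasmid libraries A to D, against 439, 484, 446 and 358 CPM in empty plasmid libraries A to D. It was higher with the TSP-4 plasmid within each letter, by as little as 0.01 on the log2 scale in letter B, and letter D was lowest in both groups. The log2 fold change was 0.16 (95% interval -0.14 to 0.46, SE 0.13) with an unadjusted p of 0.262 in edgeR. With the replicate block it was 0.15 (95% interval 0.04 to 0.26, SE 0.05), with an unadjusted p of 0.0108 and an adjusted p of 0.465 in edgeR.

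P4ha2, another catalytic subunit, was at 70.6, 82.1, 115 and 59.3 CPM in TSP-4 plasmid libraries A to D, against 61.8, 88.6, 98.2 and 60.0 CPM in empty plasmid libraries A to D. It was higher with the TSP-4 plasmid in letters A and C and lower in letters B and D, so that the log2 fold change of 0.08 (95% interval -0.48 to 0.64, SE 0.24) has no common direction across letters. P4ha3, the remaining one, averaged 31.5 ± 6.34 FPKM in TSP-4 plasmid cells, against 29.2 ± 7.96 FPKM in empty plasmid cells and was higher in 3 of 4 letters. P4hb (ENSMUSG00000025130, chr11:120560298-120573253, minus strand) was at 1143, 1106, 1096 and 1059 CPM in TSP-4 plasmid libraries A to D, against 1055, 1124, 1040.3 and 1042 CPM in empty plasmid libraries A to D. Its groups overlapped, the 8 libraries lay close together, and the log2 fold change was 0.05 (95% interval -0.07 to 0.17, SE 0.05).

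Lysyl hydroxylases prepare the hydroxylysines that carry sugars and form the stable cross-links of stiff tissue. Plod2 (ENSMUSG00000032374, chr9:92542223-92608428, plus strand) was at 635, 506, 484 and 373 CPM in TSP-4 plasmid libraries A to D, against 474, 473, 424 and 362 CPM in empty plasmid libraries A to D. TSP-4 plasmid library A was highest, both letter D libraries were lowest, and the TSP-4 plasmid library was the higher one within each letter. The log2 fold change was 0.20 (95% interval -0.15 to 0.56, SE 0.16), with an unadjusted p of 0.225 in edgeR. With the replicate block it was 0.19 (95% interval 0.06 to 0.31, SE 0.06), with an unadjusted p of 0.0073 and an adjusted p of 0.437 in edgeR. The paired log2 differences were 0.42, 0.10, 0.19 and 0.04 in letters A to D, largest in letter A.

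The fold changes of the other genes of this class were also not called. Plod1, which hydroxylates helical lysines, averaged 14.9 ± 1.23 FPKM in TSP-4 plasmid cells, against 14.3 ± 0.837 FPKM in empty plasmid cells. Plod3, which also attaches glucose, averaged 61.8 ± 3.24 FPKM in TSP-4 plasmid cells, against 59.7 ± 3.80 FPKM in empty plasmid cells, and Colgalt1, the galactosyltransferase of hydroxylysine, 52.5 ± 3.02 FPKM in TSP-4 plasmid cells, against 50.9 ± 1.63 FPKM in empty plasmid cells. Each of these 3 had a log2 fold change of 0.06 or less, with 95% intervals within -0.10 to 0.22. P3h4, an ER protein found in a complex with lysyl hydroxylase 1, averaged 60.4 ± 5.52 FPKM in TSP-4 plasmid cells, against 58.0 ± 4.54 FPKM in empty plasmid cells and was higher in 4 of 4 letters with a log2 fold change of 0.06 (95% interval -0.11 to 0.23, SE 0.08). Tmem38b, an ER cation channel whose loss in humans causes brittle bones, averaged 5.37 ± 0.639 FPKM in TSP-4 plasmid cells, against 5.35 ± 0.417 FPKM in empty plasmid cells.

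Colgalt2, the second galactosyltransferase, was below the expression filter. Its counts were 2, 0, 0 and 0 in TSP-4 plasmid libraries A to D, against 1, 1, 1 and 2 in empty plasmid libraries A to D. Both groups were at or under 3 counts per library, so no fold is given.

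Prolyl 3-hydroxylase 1, Crtap and Ppib form an ER complex that modifies single prolines and helps the helix to fold. Crtap (ENSMUSG00000032431, chr9:114375134-114390675, minus strand), the most abundant of the class, was at 255, 292, 268 and 240.0 CPM in TSP-4 plasmid libraries A to D, against 244, 292, 259 and 237 CPM in empty plasmid libraries A to D. Letter B was highest and letter D lowest in both groups, and the log2 fold change was 0.03 (95% interval -0.15 to 0.22, SE 0.08). P3h1 averaged 44.5 ± 2.84 FPKM in TSP-4 plasmid cells, against 45.1 ± 2.71 FPKM in empty plasmid cells, with a log2 fold change of -0.02 (95% interval -0.16 to 0.12, SE 0.06). Ppib, the cyclophilin B isomerase, averaged 39.3 ± 1.42 FPKM in TSP-4 plasmid cells, against 39.3 ± 1.24 FPKM in empty plasmid cells, with a log2 fold change of -0.01 (95% interval -0.11 to 0.10, SE 0.05). An exon of Snx22 overlaps 25% of the annotated exon bases of Ppib on the opposite strand, and the strand setting of the counts is not given.

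P3h2 (ENSMUSG00000038168, chr16:25959288-26105784, minus strand), a prolyl 3-hydroxylase that acts on basement membrane collagen, was the rarest tested gene. It was at 3.47, 1.94, 2.66 and 1.80 CPM in TSP-4 plasmid libraries A to D, against 2.44, 1.30, 2.04 and 1.46 CPM in empty plasmid libraries A to D. Each TSP-4 plasmid library was above the empty plasmid library of its letter, while the groups overlapped. Its log2 fold change of 0.45 (95% interval -0.19 to 1.09, SE 0.28) was the largest of the 34 in size, with an unadjusted p of 0.15 in edgeR. With the replicate block it was 0.44 (95% interval 0.05 to 0.84, SE 0.18), with an unadjusted p of 0.0303 in edgeR. Antisense gene Gm4524 overlaps 28.4% of its annotated exon bases. P3h3, which is found with lysyl hydroxylase 1 in mouse skin, averaged 45.6 ± 5.44 FPKM in TSP-4 plasmid cells, against 43.6 ± 5.31 FPKM in empty plasmid cells and was higher in 4 of 4 letters, with a log2 fold change of 0.06 (95% interval -0.19 to 0.31, SE 0.11).

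HSP47 and the FKBP isomerases hold and turn the chains while they fold. Serpinh1 (ENSMUSG00000070436, chr7:99345376-99353239, minus strand) was at 2852, 2199.9, 2222 and 2252 CPM in TSP-4 plasmid libraries A to D, against 2551, 2152, 2112 and 2178 CPM in empty plasmid libraries A to D. The letter A library was highest in both groups, the other 3 letters lay close together, and the TSP-4 plasmid library was higher within each letter. Its log2 fold change was 0.08 (95% interval -0.15 to 0.32, SE 0.10), with an unadjusted p of 0.44 in edgeR. With the replicate block it was 0.08 (95% interval 0.00 to 0.15, SE 0.04), with an unadjusted p of 0.0433 in edgeR, and DESeq2 with the block gave 0.0568. Without TSP-4 plasmid library A and without a block the log2 fold change was -0.01. That fit drops the highest letter from the TSP-4 plasmid group only. With the block and both letter A libraries left out, the log2 fold change was 0.05.

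Fkbp9 averaged 129 ± 9.98 FPKM in TSP-4 plasmid cells, against 122 ± 10.7 FPKM in empty plasmid cells, with a log2 fold change of 0.08 (95% interval -0.11 to 0.26, SE 0.08). Fkbp10, or FKBP65, mutated in human brittle bone disease, averaged 125 ± 14.3 FPKM in TSP-4 plasmid cells, against 125 ± 14.7 FPKM in empty plasmid cells, with a log2 fold change of 0.00 (95% interval -0.22 to 0.23, SE 0.10). Fkbp14 averaged 17.3 ± 1.5 FPKM in TSP-4 plasmid cells, against 16.8 ± 0.678 FPKM in empty plasmid cells, with a log2 fold change of 0.04 (95% interval -0.11 to 0.18, SE 0.06). These 3 intervals lie inside -0.22 to 0.26.

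Procollagen is too long for a common COPII vesicle, and Mia3 (TANGO1) recruits membrane and coat for it. Mia3 averaged 25.4 ± 1.05 FPKM in TSP-4 plasmid cells, against 24.1 ± 0.598 FPKM in empty plasmid cells and was higher in 4 of 4 letters, with a log2 fold change of 0.07 (95% interval -0.03 to 0.17, SE 0.04) and an unadjusted p of 0.14 in edgeR. Sec23a, a subunit of the inner COPII coat, averaged 34.4 ± 2.49 FPKM in TSP-4 plasmid cells, against 33.7 ± 2.29 FPKM in empty plasmid cells, with a log2 fold change of 0.03 (95% interval -0.12 to 0.17, SE 0.07). Creb3l1 (ENSMUSG00000027230, chr2:91982328-92024502, minus strand), an ER-bound transcription factor that activates Col1a1 in mouse osteoblasts, had the highest FPKM of the 3. It was at 110.1, 141, 163 and 103 CPM in TSP-4 plasmid libraries A to D, against 108, 159, 138 and 112 CPM in empty plasmid libraries A to D. Letters B and C were above letters A and D in both groups, and the log2 fold change was -0.00 (95% interval -0.40 to 0.40, SE 0.18).

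The N- and C-proteinases cut the propeptides. Of the 6 tested genes of this class, 3 had a log2 fold change above 0, against 49.9% of all genes. Bmp1 (ENSMUSG00000022098, chr14:70474558-70520234, minus strand), the main C-proteinase, which also activates Lox, was at 279.8, 370.5, 379 and 278 CPM in TSP-4 plasmid libraries A to D, against 265, 398, 359.7 and 267 CPM in empty plasmid libraries A to D. Letters B and C were above letters A and D in both groups, and the log2 fold change was 0.02 (95% interval -0.36 to 0.40, SE 0.17). Tll1 (ENSMUSG00000053626, chr8:64014931-64206271, minus strand), the related tolloid-like proteinase, was at 31.0, 30.0, 30.7 and 56.3 CPM in TSP-4 plasmid libraries A to D, against 46.2, 35.1, 35.1 and 60.8 CPM in empty plasmid libraries A to D. Letter D was highest in both groups and the TSP-4 plasmid library was lower within each letter, most in letter A.

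The log2 fold change of Tll1 was -0.26 (95% interval -0.88 to 0.35, SE 0.27), with an unadjusted p of 0.353 in edgeR. With the replicate block it was -0.28 (95% interval -0.43 to -0.12, SE 0.07), with an unadjusted p of 0.00194 and an adjusted p of 0.376 in edgeR. Bmp1 stood near 0, at 0.02 without the block and 0.03 with it, and changed sign in 4 fits with 1 library left out. The difference between the fold changes of Bmp1 and Tll1 was not tested.

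Adamts2 (ENSMUSG00000036545, chr11:50602084-50807573, plus strand), the main N-proteinase of type I procollagen, was at 174, 284, 239 and 141 CPM in TSP-4 plasmid libraries A to D, against 144, 279.8, 202 and 131 CPM in empty plasmid libraries A to D. Letters B and C were well above A and D in both groups, and within each letter the TSP-4 plasmid library was the higher one. Its log2 fold change was 0.15 (95% interval -0.54 to 0.84, SE 0.30), with an unadjusted p of 0.635 in edgeR. With the replicate block it was 0.16 (95% interval 0.06 to 0.26, SE 0.05), with an unadjusted p of 0.00326 and an adjusted p of 0.419 in edgeR. Without TSP-4 plasmid library B and without a block the log2 fold change was -0.03. That fit drops the highest letter from the TSP-4 plasmid group only. With the block and both letter B libraries left out, the log2 fold change was 0.21.

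Adamts14 (ENSMUSG00000059901, chr10:61197112-61273438, minus strand), a related N-proteinase, was at 28.6, 46.4, 58.0 and 43.0 CPM in TSP-4 plasmid libraries A to D, against 34.9, 52.1, 56.7 and 49.0 CPM in empty plasmid libraries A to D. The TSP-4 plasmid library was lower in letters A, B and D and slightly higher in letter C. Its log2 fold change was -0.13 (95% interval -0.65 to 0.39, SE 0.22), with an unadjusted p of 0.574 in edgeR, and with the replicate block -0.15 (95% interval -0.27 to -0.02, SE 0.06), with an unadjusted p of 0.0218. DESeq2 with the block gave an unadjusted p of 0.0886.

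Adamts3, the N-proteinase best known from cartilage and lymphatic development, did not pass the expression filter. Its counts were 1, 6, 9 and 1 in TSP-4 plasmid libraries A to D, against 2, 10, 4 and 5 in empty plasmid libraries A to D. The groups overlapped.

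Pcolce (ENSMUSG00000029718, chr5:137605103-137613784, minus strand), the glycoprotein that speeds C-propeptide removal by Bmp1, was at 442, 459, 395 and 364 CPM in TSP-4 plasmid libraries A to D, against 405, 461, 366 and 356 CPM in empty plasmid libraries A to D. Letter B was highest and letter D lowest in both groups, and the log2 fold change was 0.06 (95% interval -0.16 to 0.29, SE 0.10). Pcolce2, its relative, averaged 7.32 ± 0.705 FPKM in TSP-4 plasmid cells, against 7.62 ± 0.633 FPKM in empty plasmid cells and was lower in 4 of 4 letters, with a log2 fold change of -0.06 (95% interval -0.27 to 0.14, SE 0.09) and an unadjusted p of 0.244 with the replicate block in edgeR.

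Lysyl oxidases and transglutaminase join fibrils covalently. All 6 cross-linking genes had a log2 fold change above 0, against 49.9% of all genes, although 0 passed the test. Lox, Loxl2, Loxl3 and Loxl4 each changed sign in at least 1 fit with 1 library left out and no block. Lox (ENSMUSG00000024529, chr18:52516069-52529867, minus strand) was at 4179, 3639.8, 3650.3 and 3234 CPM in TSP-4 plasmid libraries A to D, against 3707, 3524, 3583 and 3246 CPM in empty plasmid libraries A to D. Letter A was highest and letter D lowest in both groups, and the log2 fold change was 0.06 (95% interval -0.13 to 0.26, SE 0.09). Without TSP-4 plasmid library A and without a block it was -0.00, in a fit that drops the highest letter from the TSP-4 plasmid group only. With the block and both letter A libraries left out, the log2 fold change of Lox was 0.03. Tgm2 (ENSMUSG00000037820, chr2:158116402-158146436, minus strand), transglutaminase 2, was at 99.9, 100.3, 104 and 94.6 CPM in TSP-4 plasmid libraries A to D, against 89.2, 96.2, 99.5 and 86.1 CPM in empty plasmid libraries A to D. The TSP-4 plasmid library was higher within each letter while the groups overlapped. Its log2 fold change was 0.10 (95% interval -0.03 to 0.23, SE 0.06), with an unadjusted p of 0.107, and with the replicate block 0.10 (95% interval 0.02 to 0.19, SE 0.04), with an unadjusted p of 0.0206 and an adjusted p of 0.534 in edgeR.

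Loxl1, needed for elastic fibres, averaged 139 ± 8.93 FPKM in TSP-4 plasmid cells, against 134 ± 11.9 FPKM in empty plasmid cells, and Loxl2, an oxidase linked to cardiac fibrosis in mice, 73.6 ± 15.1 FPKM in TSP-4 plasmid cells, against 68.7 ± 7.50 FPKM in empty plasmid cells. Their log2 fold changes were 0.04 (95% interval -0.13 to 0.21, SE 0.08) and 0.09 (95% interval -0.23 to 0.42, SE 0.14). Loxl3 was at 355, 454, 412 and 327 CPM in TSP-4 plasmid libraries A to D, against 338, 504, 371 and 307 CPM in empty plasmid libraries A to D. It was lower with the TSP-4 plasmid in letter B and higher in the other 3. Loxl4, the rarest lysyl oxidase here, was at 55.0, 42.2, 42.1 and 62.5 CPM in TSP-4 plasmid libraries A to D, against 53.3, 39.5, 37.2 and 59.8 CPM in empty plasmid libraries A to D. Letters A and D were above B and C in both groups, the TSP-4 plasmid library was higher within each letter, and the log2 fold change was 0.09 (95% interval -0.35 to 0.52, SE 0.19).

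**Figure D3:**
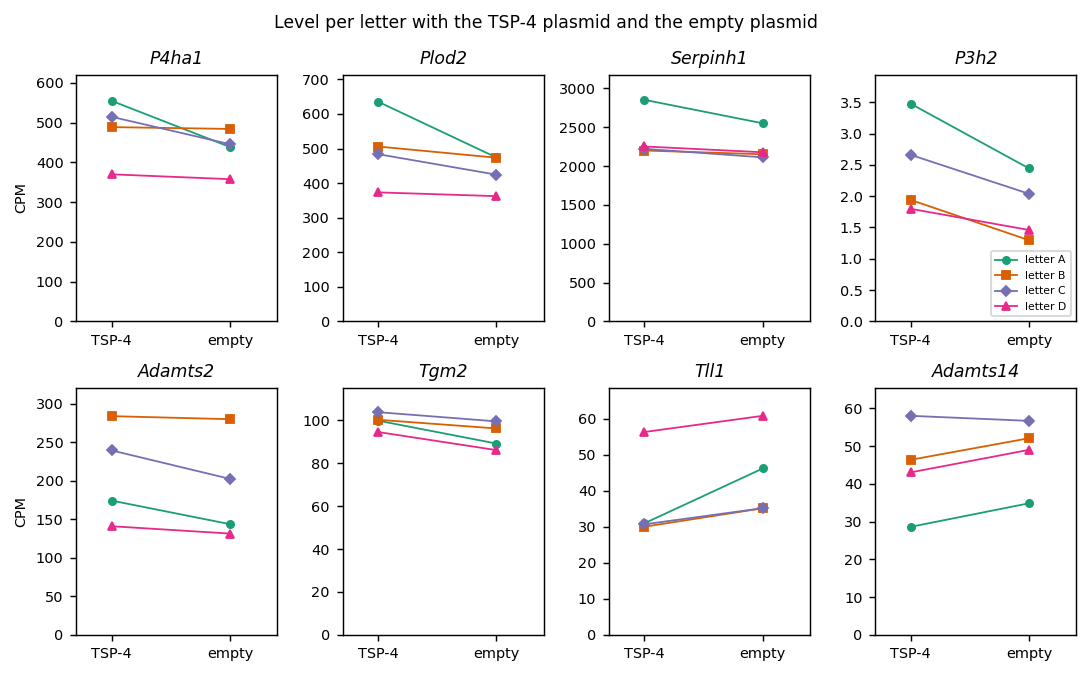
CPM of the 8 genes with an unadjusted p under 0.05 in the blocked fit, with lines joining the TSP-4 plasmid library (left) and the empty plasmid library (right) of each letter; each axis starts at 0. The lines slope down to the right within every letter for P4ha1, Plod2, Serpinh1, P3h2, Adamts2 and Tgm2 and up for Tll1, while Adamts14 has letter C against the other 3.

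The blocked results were not equally steady. With both libraries of a letter left out in turn, Plod2, Adamts2 and Tll1 had an unadjusted p under 0.05 in 4 of 4 blocked edgeR fits. P4ha1 kept it without letters A, B and D, Tgm2 without B and C, Serpinh1 without B, P3h2 without D and Adamts14 without C. The number of genes under 0.05 was 4 of 34 without letter A (11.8%, against 5.52% of all genes) and 11 without letter B (32.4%, against 9.34%). It was 5 without letter C (14.7%, against 5.75%) and 5 without letter D (14.7%, against 9.25%). Without letter B, Fkbp9, Loxl2, Loxl3, P4ha2 and P4ha3 joined them, each higher with the TSP-4 plasmid. In each of these fits most of the 34 genes had a log2 fold change above 0. DESeq2 with the block gave an unadjusted p under 0.05 for Plod2 (0.00176), Tll1 (0.00401), Adamts2 (0.00600) and P4ha1 (0.00793). These were 4 of 34 genes (11.8%), against 2.97% of all genes, and 0 of 34 had an adjusted p under 0.05 there, against 0.0679% of all genes.

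Differences between letters were called for most of the same genes. A letter test in edgeR, in a fit that keeps the plasmid as a term, called 24 of 34 genes at an adjusted p under 0.05 (70.6%), against 28.1% of all genes. Among genes with a mean of at least 10 CPM it called 23 of 33 (69.7%), against 33.4% of all such genes. With a mean of at least 100 CPM it called 17 of 23 (73.9%), against 45.1%. The median range of the 4 letter means was 0.31 on the log2 scale, a 1.24-fold span, against 0.30 over all genes. Among genes at 100 CPM or more it was 0.29 against 0.19. What a letter marks is unknown, so these are differences between pairs of libraries of unknown origin.

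**Figure D4:**
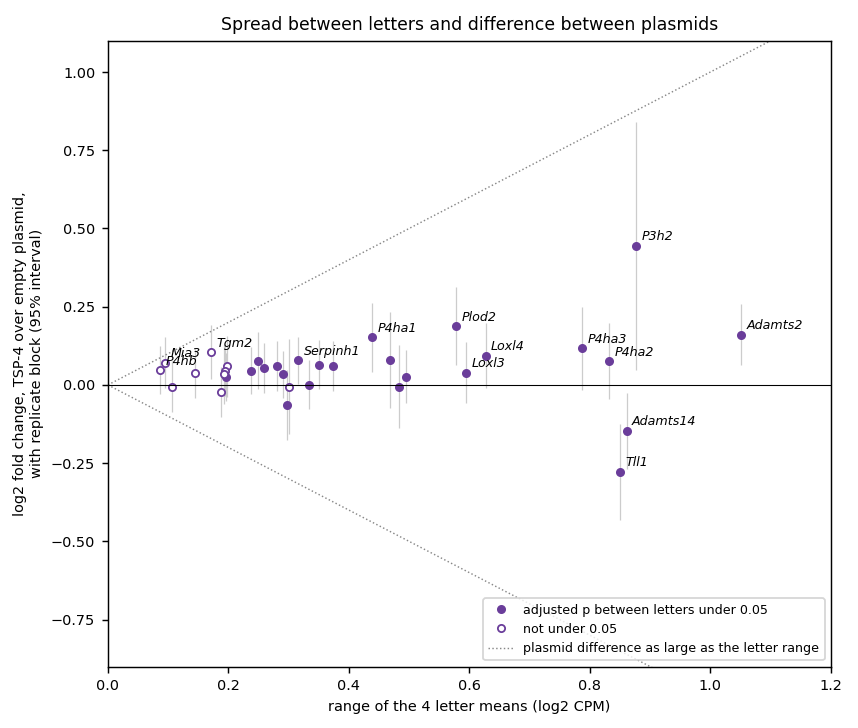
For each of the 34 tested genes, the range of the 4 letter means (log2 CPM, horizontal) and the log2 fold change between plasmids from the blocked edgeR fit with its 95% interval (vertical); filled points have an adjusted p between letters under 0.05. All points lie between the dotted lines, where the plasmid difference would equal the letter range. A range of 4 means is above 0 even from noise alone, so this is a description and no test of one against the other.

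Adamts2 had the smallest p between letters and a span of 2.07-fold. Its letter means were 158, 282, 220.0 and 136 CPM in letters A to D, with an adjusted p of 1.91e-07 in the letter test of edgeR. Bmp1 followed, with letter means of 272, 384, 369 and 273 CPM and an adjusted p of 1.01e-05 in edgeR. Both proteinases were high in letters B and C and low in A and D.

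P4ha2 had letter means of 66.0, 85.3, 106 and 59.6 CPM in letters A to D (adjusted p 1.69e-05 in edgeR), and Adamts14 31.6, 49.2, 57.4 and 45.9 CPM (adjusted p 1.96e-05). Loxl3 had 347, 478, 391 and 317 CPM (adjusted p 6.34e-05). Letter C was highest for P4ha2 and Adamts14, and letter B for Loxl3. Loxl4 went the other way from Loxl3, with letter means of 54.2, 40.8, 39.6 and 61.1 CPM and an adjusted p of 1.75e-05 in edgeR.

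Among the 24 genes, letters B and C had the highest means in 11 (45.8%, against 40.4% of all genes called between letters): P4ha2, P4ha3, P3h3, Crtap, Fkbp9, Creb3l1, Bmp1, Pcolce2, Adamts2, Adamts14 and Loxl3. In 6, letters A and D did (25%, against 24.9%): P3h4, Serpinh1, Fkbp10, Sec23a, Tll1 and Loxl4. Both shares were near those of all called genes. P4ha1, Plod2, Pcolce and Loxl1 were highest in A and B, and P3h2, Lox and Loxl2 in A and C. Letter D had the lowest mean for 14 of the 24 (58.3%, against 25.7% of all genes called between letters). By role, 6 of 6 tested proteinase and enhancer genes and 5 of 6 cross-linking genes were called between letters, against 28.1% of all genes. It was 3 of 4 for prolyl 4-hydroxylase, 3 of 4 for chaperones and isomerases, and 2 of 3 for export. For prolyl 3-hydroxylation it was 3 of 5, and for lysyl hydroxylation 2 of 6. Whether the roles differ in this was not tested.

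P3h4 and Fkbp10 are neighbours read in opposite directions from starts 860 bases apart on chromosome 11, at chr11:100408456-100414836 and chr11:100415697-100424824. Their letter means were 143, 124, 119 and 131 CPM for P3h4 and 419, 333, 339.5 and 383 CPM for Fkbp10, both with letters A and D on top. The adjusted p between letters was 0.0079 for P3h4 and 0.000461 for Fkbp10 in edgeR.

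The other 10 genes did not pass the letter test. P4hb spanned 1.06-fold, Mia3 1.07-fold, Ppib 1.08-fold and Colgalt1 1.11-fold between the highest and the lowest letter. The span was 1.13-fold for Tgm2, 1.14-fold for P3h1, 1.14-fold for Plod3, 1.14-fold for Fkbp14, 1.15-fold for Plod1 and 1.23-fold for Tmem38b.

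Summed markers of cell types also varied with the letters. The 5 mesothelial markers, Msln, Upk3b, Wt1, Krt19 and Lrrn4, summed to 774.9, 448.8, 492.7 and 710.7 CPM in TSP-4 plasmid libraries A to D, against 788.6, 422.1, 470.6 and 679.9 CPM in empty plasmid libraries A to D. The sum was highest in letters A and D. Those letters had the highest means for 8 of the 34 genes (23.5%, against 22.7% of all genes), and letters B and C for 14 (41.2%, against 25.4%). Lrrn4 and Upk3b made up most of the mesothelial sum and had their highest letter means in A and D, as did Krt19. Wt1 had its lowest in letter D, and Msln was lower in D than in C. The 10 macrophage markers summed to 301.5, 757.5, 1707 and 757.8 CPM in TSP-4 plasmid libraries A to D, against 334.9, 1016, 1381 and 625.5 CPM in empty plasmid libraries A to D. The 8 fibroblast markers, among them the collagens Col1a1, Col1a2 and Col3a1, summed to 13750, 14090, 12830 and 9297 CPM in TSP-4 plasmid libraries A to D, against 11820, 14450, 10770 and 9147 CPM in empty plasmid libraries A to D. This sum, most of it from the 3 collagens, was lowest in letter D, as were 20 of the 34 genes (58.8%, against 24.9% of all genes). Col1a1, Col1a2, Col3a1, Ddr2 and Tcf21 had their lowest letter mean in D, but Dcn and Pdgfra had it in A, and Thy1 had it in C. Their part in the letter differences was not tested.

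**Figure D5:**
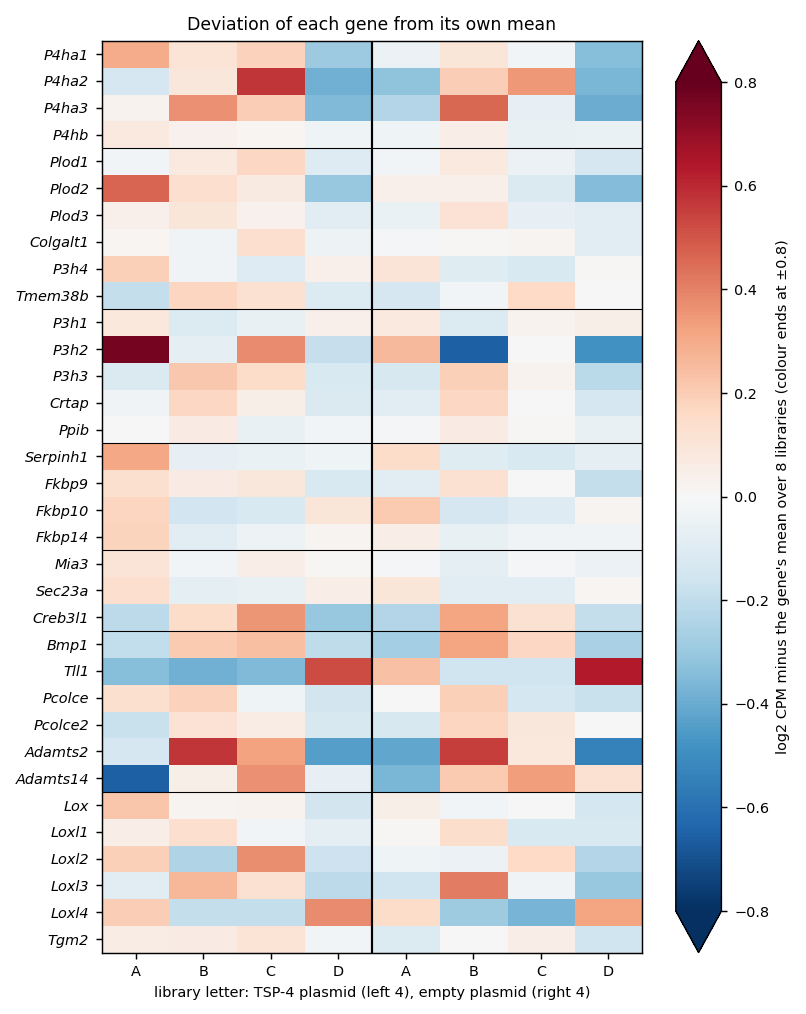
Log2 CPM of each of the 34 tested genes in each library minus that gene's mean over the 8 libraries (colour), with TSP-4 plasmid libraries A to D on the left and empty plasmid libraries A to D on the right. The left and right blocks repeat the same columns for Adamts2, Bmp1, Tll1 and Loxl4, and the letter D columns are mostly blue.

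Genes that work with these 36 were read from 5 lists. Of their tested members 0 were called between plasmids, against 0.00679% of all genes. Of 17 collagen chains, 15 had a log2 fold change above 0, with a median of 0.12, against 49.9% of all genes above 0. In the blocked edgeR fit Col12a1 had an unadjusted p of 0.00535, Col18a1 0.0152, Col3a1 0.0399 and Col6a1 0.048, each higher with the TSP-4 plasmid. These were 4 of 17 chains, against 4.14% of all genes. Without the block 0 of 17 had an unadjusted p under 0.05, against 1.6% of all genes. Col12a1 was at 275 ± 21.3 CPM in TSP-4 plasmid cells, against 251 ± 30.5 CPM in empty plasmid cells, and Col3a1 at 2798 ± 831 CPM in TSP-4 plasmid cells, against 2358 ± 771 CPM in empty plasmid cells. Col1a1, the chain with the highest FPKM, was at 835 ± 94.8 FPKM in TSP-4 plasmid cells, against 787 ± 100.4 FPKM in empty plasmid cells, with a log2 fold change of 0.08 (95% interval -0.17 to 0.34, SE 0.11). Between letters, 16 of the 17 chains were called (94.1%, against 28.1% of all genes), and 12 of the 12 with a mean of at least 100 CPM, against 45.1% of all such genes.

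Of 10 tested genes of collagen proteolysis and fibril assembly, 9 lay above 0, with a median of 0.09, against 49.9% of all genes above 0. Fmod, the fibril-binding proteoglycan fibromodulin, was at 206 ± 47.8 CPM in TSP-4 plasmid cells, against 165 ± 40.7 CPM in empty plasmid cells, and was higher in 4 of 4 letters. Its unadjusted p was 1.17e-05 with the replicate block in edgeR, with an adjusted p of 0.0576. Fn1, fibronectin, had an unadjusted p of 0.0383 in that fit. These were 2 of 10 genes, both higher with the TSP-4 plasmid, against 4.14% of all genes. Without the block 0 of 10 had an unadjusted p under 0.05, against 1.6% of all genes. Sparc, the collagen-binding protein with the highest FPKM of the list, was at 1251 ± 142 FPKM in TSP-4 plasmid cells, against 1169 ± 98.2 FPKM in empty plasmid cells.

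General ER folding and oxidation genes lay evenly about 0: 9 of 16 were above it, with a median of 0.01, and Calr, the chaperone calreticulin, was at 377 ± 10.6 FPKM in TSP-4 plasmid cells, against 374 ± 16.6 FPKM in empty plasmid cells. Genes of the COPII coat and large cargo export had 6 of 14 above 0 with a median of -0.01, and Sar1a, the GTPase that starts the coat, was at 73.7 ± 2.26 FPKM in TSP-4 plasmid cells, against 74.4 ± 2.53 FPKM in empty plasmid cells. For the supply of ions and cofactors 4 of 7 were above 0 with a median of 0.02, and Slc39a13, a zinc transporter mutated in a human connective tissue disease, was at 33.8 ± 1.02 FPKM in TSP-4 plasmid cells, against 32.8 ± 2.18 FPKM in empty plasmid cells. Over all genes, 49.9% lay above 0. In these 3 lists 0 members had an unadjusted p under 0.05 in either edgeR fit. The share over all genes was 1.6% without the block, and with it 4.14% higher and 3.98% lower. Whether the lists differ from each other was not tested.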

How the data were processed

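Poly(A) RNA of 8 libraries was analysed, 4 per plasmid. The deposited tables hold whole-number read counts per gene and the authors' FPKM values, each equal to the count divided by gene length and by a scaled library total. Tools listed in the submitters' processing notes are HTSeq 0.6.1, Cufflinks 2.1.1, TopHat2 2.0 and CASAVA, and the builds mm10 and GRCm38.p6. For strand setting, annotation release and multi-mapped reads nothing is given in the sources used here, so genes with overlapping exons are uncertain. Besides Ppib and P3h2, genes on the opposite strand overlap the annotated exon bases of Tgm2, by 13.7% (Gm20412) and 8.0% (Rprd1b). Such overlap was 11.7% for Plod3, 11.6% for Loxl3, 11.4% for Colgalt1, 8.9% for Sec23a and 6.4% for Plod2. In other genes it was 6.6% or less. Start and end in the files equal those of GENCODE M21 for 35 of the 36 genes, all but Lox.

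Counts were tested in R 4.3.3 with edgeR 4.0.16 (quasi-likelihood, robust, TMM factors, filter at a minimum count of 10, plasmid as the single term), with Benjamini-Hochberg adjustment over 14723 genes at 0.05. CPM uses TMM-scaled totals. A letter test used plasmid plus letter. Alternatives were RLE factors, no filter (at least 1 count in total), DESeq2 1.42.0, limma voom (limma 3.58.1), the letter as a replicate block, libraries left out, and for the letter test also letter alone. The scripts were tested on simulated data, which for the plasmid test held no differences between letters, unlike the data here. The letters pair the libraries by the data and not by the labels: deviations from group means correlated with Pearson's r of 0.508 to 0.651 within letters and -0.57 to 0.323 between them. No pair of libraries agreed within sampling noise.

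The 36 genes, their partner lists and markers were chosen with earlier results of these data known. Values per library are given for the gene with the highest FPKM in each role, those with an unadjusted p under 0.05 in either edgeR fit, the 6 with the smallest p between letters, and those under the filter. Of each partner list, at most 4 such genes and the one with the highest FPKM are named. Of 69 entries on these lists, 68 were found in the tables.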

Additional observations from a re-analysis of the deposited data

Results flagged for a closer look

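In 3 of the 68 sets of 4 libraries examined (34 genes in each group), a single library stood far from the other 3. Chance gives about 5% of such sets, so 3 is near or below that. The measure is Dixon's: the gap to the nearest library, divided by the range of the 4. Serpinh1 in TSP-4 plasmid library A, at 2852 CPM, had a ratio of 0.92, and Serpinh1 in empty plasmid library A, at 2551 CPM, had 0.851, so the same letter stood out in both groups. Tll1 in TSP-4 plasmid library D, at 56.3 CPM, had 0.964. The empty plasmid library of letter D was also the highest of its group for Tll1, at 60.8 CPM.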

How the results depend on the processing

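The count of 0 genes called between plasmids held in all 18 alternatives. Over all genes, 1 was called in 13 of them. All genes called numbered 2 with the replicate block in edgeR, 10 with the block in DESeq2, and with the block 5 without letter A, 4 without letter B and 2 without letter C; the cause was not tested. The block changed no other call. With 1 library left out and no block, the median log2 fold change of the members was 0.0155 to 0.0908, and the number above 0 was 21 to 28. The median was lowest without empty plasmid library D and highest without empty plasmid library B. With the block and both libraries of a letter left out in turn, most of the members lay above 0 in each fit.

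Directions near 0 were not stable, and the cause was not tested. Creb3l1 was 0.005 with RLE factors and with DESeq2, 0.001 without the filter, and with the block 0.049 without letter B and 0.035 without letter D. Tmem38b was 0.003 with RLE factors and 0.002 with DESeq2, and with the block 0.016, 0.007 and 0.035 without letter A, C or D. With the block and letter C left out, P3h1 was 0.002 and Ppib 0.018. Fkbp10 was -0.018 with the block without letter D. With 1 library left out and no block, which unbalances the letters, the log2 fold changes of 20 genes changed sign in at least 1 fit, with these ranges: Adamts14 -0.288 to 0.032, Adamts2 -0.034 to 0.397, Bmp1 -0.064 to 0.136, Creb3l1 -0.124 to 0.112, Crtap -0.019 to 0.097, Fkbp10 -0.058 to 0.077, Fkbp14 -0.021 to 0.071, Lox -0.002 to 0.121, Loxl2 -0.020 to 0.182, Loxl3 -0.064 to 0.191. The others were Loxl4 -0.031 to 0.219, P3h1 -0.061 to 0.009, P3h3 -0.004 to 0.139, P3h4 -0.003 to 0.102, P4ha2 -0.120 to 0.220, P4ha3 -0.003 to 0.308, Ppib -0.029 to 0.019, Sec23a -0.016 to 0.064, Serpinh1 -0.014 to 0.149 and Tmem38b -0.061 to 0.061. The other 14 genes did not change sign in any alternative.

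Between letters, DESeq2 called 2716 of all genes, against 4134 in edgeR, and 21 of the 34 genes. With 1 library left out the count was 18 to 24, lowest without TSP-4 plasmid library D. Of the 24 genes called, 15 were called in all 12 alternatives. The shares over all genes are not given for these 2 counts. Whether the loss of calls is particular to these genes was not tested. P3h2 was called in 0 of 8 fits with 1 library left out, Pcolce2 in 1, Fkbp9 in 3 and Sec23a in 4. Colgalt2 and Adamts3 had 10 counts or fewer per library, so a plasmid difference in them was tested only in the edgeR fit without the filter. There 0 of 36 genes had an unadjusted p under 0.05, against 540 of 30348 genes in all.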
